A study of Mus musculus with 18 samples.

Results

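Among 42403 genomic regions bound by GATA6 during the conversion of mouse embryonic stem (ES) cells into primitive endoderm (PrE)-like cells, 250 regions (0.590%) were classed as Late for GATA6 and as occupied by pluripotency transcription factors (PTF) before induction. These Late regions with PTF from d0 were chosen by measured values of the same study. The authors' k-means grouping of the GATA6 time course placed them in the Late class, and their grouping of called OCT4, SOX2 and ESRRB peaks placed them among regions with PTF in untreated cells (d0). GATA6 and PTF signals are therefore given below as a description, without a test. The table states no numeric threshold for either class, and the lowest SOX2 signal at d0 among the 250 was 0.327. The study used KH2 ES cells (C57BL/6 x 129/Sv background) that carry a doxycycline (Dox)-inducible Gata6 cassette, so Dox starts GATA6 expression from a transgene. The 18 micrococcal nuclease (MNase) libraries of the series form 6 groups of 3 replicates, untreated cells and cells after 8, 16, 24, 48 and 96 h of Dox at 1 µg/mL, on feeder cells with LIF. None of these libraries has a value in the columns used here: the table describes regions, with 1 value per region, factor and time point from companion ChIP-seq and ATAC-seq, and for extra-embryonic endoderm (XEN) cells. Every comparison below is therefore between sets of regions, and its interval measures the spread between regions and not between cultures.

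GATA6 is a zinc finger factor that binds GATA sequences and can open chromatin, and it starts the PrE programme in the blastocyst. OCT4 and SOX2 bind a joint octamer and SOX element at enhancers of pluripotent cells, where the nuclear receptor ESRRB is a frequent partner. SOX17 is a SOX factor of the endoderm that reads a motif close to that of SOX2 and maintains the PrE fate once it is expressed.

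The sequence around the GATA6 summit is shown for 6 regions of different kinds. They were picked by a high SOX17 or OCT4:SOX2 motif score, among all 250 or within a kind, and are not a typical sample. Each window holds the summit and 100 bases on either side of it, on the plus strand of GRCm38, in lower case, with the best GATA6, SOX17, OCT4:SOX2 or ESRRB motif that the authors' scan placed inside it in capitals. The region 71653 bp from the Foxo1 start (window chr3:52196583-52196783) shared the best SOX17 motif score of the 250 with 6 others, beside an OCT4:SOX2 motif. The region 56296 bp from the Kit start (chr5:75518520-75518720) and an intronic region of Plekha6 (chr1:133209321-133209521) had a GATA6 and a SOX17 motif close to the summit. The region 229 bp from the start of the histone gene Hist1h3b (chr13:23751938-23752138) was bound by GATA6 without any listed GATA6 motif. An intronic region of Erbb4 (chr1:68780172-68780372) had the best OCT4:SOX2 motif and was not bound by SOX17. A closed region in an intron of Rbm39, 6711 bp from the Romo1 start (chr2:156150851-156151051), had both a SOX17 and an OCT4:SOX2 motif and no SOX17 peak.
Region near Foxo1: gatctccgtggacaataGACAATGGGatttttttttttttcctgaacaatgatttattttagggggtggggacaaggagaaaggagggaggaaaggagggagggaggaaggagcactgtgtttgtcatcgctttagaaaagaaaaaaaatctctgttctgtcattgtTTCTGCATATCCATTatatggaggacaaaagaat
Region near Kit: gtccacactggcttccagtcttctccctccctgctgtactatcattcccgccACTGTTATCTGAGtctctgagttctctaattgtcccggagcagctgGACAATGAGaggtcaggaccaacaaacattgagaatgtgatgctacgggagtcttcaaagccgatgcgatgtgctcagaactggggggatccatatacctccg
Region in Plekha6: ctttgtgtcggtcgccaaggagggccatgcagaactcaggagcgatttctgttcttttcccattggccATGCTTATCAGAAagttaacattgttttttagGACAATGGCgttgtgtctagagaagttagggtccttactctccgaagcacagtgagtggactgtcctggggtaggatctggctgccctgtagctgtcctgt
Region at Hist1h3b: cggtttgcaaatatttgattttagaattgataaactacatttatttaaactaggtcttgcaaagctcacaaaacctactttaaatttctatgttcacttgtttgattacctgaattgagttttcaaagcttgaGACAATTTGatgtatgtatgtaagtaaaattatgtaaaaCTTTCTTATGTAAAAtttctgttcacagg
Region in Erbb4: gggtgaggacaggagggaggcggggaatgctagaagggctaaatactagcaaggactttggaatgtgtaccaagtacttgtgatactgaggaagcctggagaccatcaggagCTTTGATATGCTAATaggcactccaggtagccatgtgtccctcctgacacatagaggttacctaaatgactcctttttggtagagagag
Region in Rbm39: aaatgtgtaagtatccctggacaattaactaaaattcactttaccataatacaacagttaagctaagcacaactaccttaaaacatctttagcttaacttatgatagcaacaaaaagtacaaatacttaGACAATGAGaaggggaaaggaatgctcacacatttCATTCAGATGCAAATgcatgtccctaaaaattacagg

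In 4 of these windows the capitals hold the letters GACAATG, the reverse complement of most of a SOX17 motif. In the Foxo1, Kit and Plekha6 regions a SOX17 peak was called, and in the Rbm39 region none was. Throughout, bound by SOX17 means only that a SOX17 peak was called. SOX17 reads in the Rbm39 region, not divided by input, went from 1.49 at d0 to 4.28 at 96 h. Input there was 1.03 and 1.39. The summit of the Kit region lay 2 bp from the centre of its SOX17 motif (score 12.8), and that of the Plekha6 region 4 bp (score 12.2). In both, the GATA6 motif lay on the other side, centred 42 and 26 bp before the summit.

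The GATA6 signal of the 250 regions was low from the start and rose at the end of the time course. Signals are the authors' library-size-corrected reads in a region, not divided by its width, and a ratio to the input of the same time point removes the width. Relative to input, the median GATA6 signal was 2.30 at 8 h (quartiles 1.69 and 3.33), 1.72 at 16 h, 2.24 at 24 h, 2.49 at 48 h and 3.71 at 96 h. It was 3.63 in XEN cells. The other 13993 Late regions began at 1.32 and reached 4.00 at 96 h, while the 3282 Early regions with PTF from d0 began at 10.0 and came down to 4.65. Not divided by input, the GATA6 signal was highest at 96 h in 169 of the 250 regions and at 8 h in 44 (17.6%). Of the other Late regions, 2.19% had their highest value at 8 h. On the log2 scale the change in GATA6 signal from 8 to 96 h had a median of 1.03, with a lowest value of -2.92 and a highest of 3.14, and 197 regions were above 0. Log2 changes here and below, and counts of regions that went up, are of signal not divided by input. On this measure the class includes regions with less GATA6 signal at 96 h than at 8 h. The authors' grouping used input-normalised values. In the 250 regions the log2 change of input from d0 to 96 h ranged from -2.62 to 1.32. Relative to input too, the median GATA6 signal of the regions without a SOX17 peak was lower at 96 h than at 8 h, as given below.

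The PTF signals at d0 come from different antibodies, so the order of their heights is given as a description and not read as a ranking of the factors. The median SOX2 signal was 4.25 times input, that of OCT4 2.58 times and that of ESRRB 1.63 times. SOX2 gave the highest of the 3 signals in 205 of the 250 regions (82.0%), against 74.9% of the Early and 65.4% of the Transient regions with PTF from d0. The same ratios were 1.00, 0.912 and 0.975 in the other Late regions, which were chosen for not having PTF at d0. In the Transient regions with PTF from d0 the SOX2 ratio was 6.22.

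The signals of the 3 pluripotency factors changed to different degrees. From d0 to 96 h the median log2 change was -0.02 for OCT4, -0.34 for SOX2 and -0.97 for ESRRB. OCT4 was above its d0 value in 123 of 250 regions, SOX2 in 85 and ESRRB in 21. Over all 42403 regions the shares above d0 were 55.5%, 52.7% and 25.9%. In the other Late regions, chosen for not having PTF at d0, the shares were 90.5%, 92.7% and 50.4%. Median changes there were 1.12, 1.38 and 0.005. In the 5309 Transient regions with PTF from d0 the median changes were -2.25, -2.81 and -1.88, and in the Early ones -0.33, -0.83 and -1.41. At 96 h OCT4 was at 2.50 times input in the 250 regions, against 1.45 times in the Transient regions. In XEN cells SOX2 was at 1.30 times input.

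**Figure D1:**
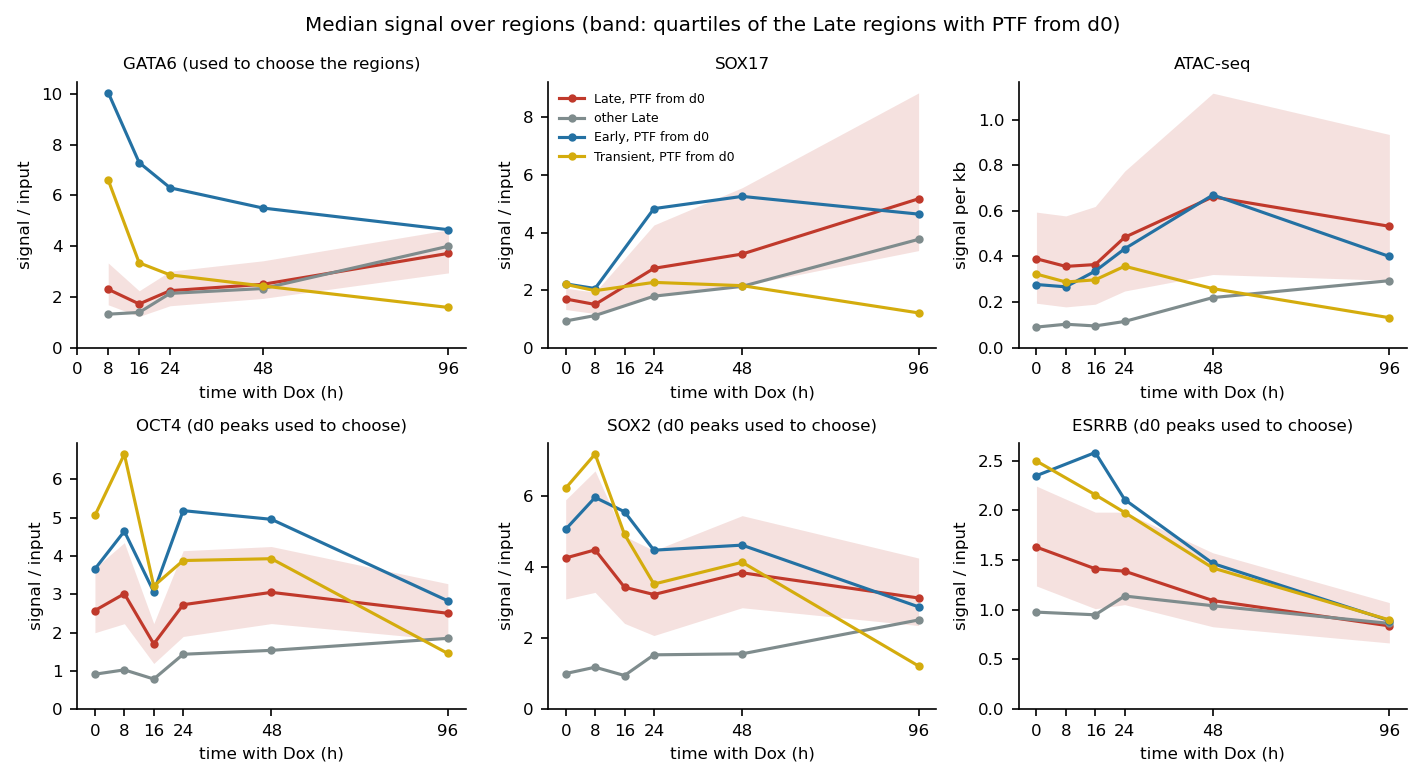
Median signal over regions against time with Dox in hours, for GATA6, SOX17, OCT4, SOX2 and ESRRB as a ratio to input and for ATAC-seq as signal per kb, in 4 sets of regions; the band gives the quartiles of the 250 Late regions with PTF from d0. In these regions (red) SOX17 rose from 1.69 to 5.17 times input, GATA6 ended at 3.71, and OCT4 ended near where it began.

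SOX17, which was not used to choose the regions, bound most of them. A SOX17 peak was called in 200 of 250 regions (80.0%, 95% Wilson interval 74.6 to 84.5%), against 44.5% of all 42403 regions and 52.9% of the other Late regions. The difference from the other Late regions was 27.1 percentage points, with an interval of 17.5 to 34.2 at the 99.9% level. This level divides an error of 5% over 50 comparisons, and a difference is called where its interval leaves out 0. Against the Transient regions with PTF from d0, of which 25.4% were bound, the difference was 54.6 points (44.9 to 61.9). Against the Early regions with PTF from d0, of which 88.4% were bound, it was -8.39 points (-18.0 to -1.12). That last difference turned to 2.64 points (-10.5 to 14.2) when the Early regions, with a mean width of 1190 bp against 600 bp, were weighted to the same widths. The SOX17 share was 27.3 points higher than in other Late regions after weighting for accessibility (17.3 to 35.1) and 17.8 points higher after weighting for width (8.20 to 24.9). Weighted for GATA6 signal at 96 h, an alternative chosen after seeing the data, it was 12.1 points higher (2.56 to 19.2).

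The SOX17 signal showed when this happened. It was 1.69 times input at d0, 1.50 at 8 h, 2.76 at 24 h, 3.25 at 48 h and 5.17 at 96 h, and 3.89 in XEN cells. From d0 to 96 h it went up in 232 of 250 regions, with a median log2 change of 1.82. The largest change was 4.39 and the smallest -2.51. In the other Late regions 97.3% went up, with a median of 2.14, and of all regions 70.3%. In the Early regions with PTF from d0 the SOX17 ratio was 4.83 at 24 h, 5.26 at 48 h and 4.64 at 96 h. Their signal was thus highest at 48 h, whereas that of the 250 Late regions was highest at 96 h. The value at d0 stands beside a median of 0.925 in the other Late regions and 2.20 in the Transient regions with PTF from d0.

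Single regions show the range. Values of single regions, here and below, are reads in the region not divided by input, so they are not on the scale of the ratios above. At the Foxo1 region the SOX17 signal was 1.20 at d0, 0.797 at 8 h, 5.91 at 24 h, 10.7 at 48 h and 21.2 at 96 h, and 24.3 in XEN cells. GATA6 there went from 1.09 at 8 h to 5.83 at 96 h. Foxo1 is a forkhead factor downstream of insulin signalling. At the Plekha6 region SOX17 was 1.30 at d0, 2.41 at 48 h and 11.1 at 96 h, and GATA6 rose from 1.46 to 4.76. At the Kit region, near the gene of the stem cell factor receptor, SOX17 was 1.27 at d0, 1.14 at 48 h and 2.28 at 96 h, with 5.55 in XEN cells. Input there was 0.776 at d0, 0.544 at 48 h, 0.368 at 96 h and 0.871 in XEN cells. At the Erbb4 region GATA6 fell from 3.85 at 8 h to 1.07 at 96 h, SOX2 from 3.52 at d0 to 0.943, and SOX17 was 1.33 at d0 and 0.810 at 96 h. Input fell there as well, from 0.784 at d0 and 0.711 at 8 h to 0.311 at 96 h. GATA6 and SOX2 reads fell there by a larger factor than input did, so both also fell relative to input. SOX17 reads fell by a smaller factor than input, so SOX17 rose relative to input.

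The 50 regions without a SOX17 peak differed in more than SOX17. Their median GATA6 ratio was 3.33 at 8 h and 2.90 at 96 h, against 2.22 and 3.93 in the 200 bound regions, and their median log2 change of GATA6 signal from 8 to 96 h was -0.27 against 1.18. OCT4 changed by -0.83 from d0 to 96 h in the unbound and by 0.20 in the bound regions, SOX2 by -1.25 and -0.20, and ATAC-seq by -0.10 and 0.67. The SOX17 signal itself went up over that time in 35 of the 50 unbound regions, with a median log2 change of 0.68. It went up in 197 of the 200 bound regions, with a median of 2.02. These values are descriptions, since the SOX17 class comes from the same time course. Of 6 features that came from elsewhere, 1 differed: a SOX17 motif was present in 82.0% of the bound and 60.0% of the unbound regions, a difference of 22.0 points (0.320 to 45.7). A GATA6 motif was present in 65.0% of the bound and 74.0% of the unbound regions, a difference of -9.00 points (-27.7 to 16.3) that was not called. The intervals are wide because only 50 regions were unbound, so a difference of this size was not detectable with this number of regions. Accessible regions made up 33.5% and 24.0%, and the mean width was 623 and 509 bp.

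Most of the 250 regions were of moderate or higher accessibility before induction. ATAC-seq of untreated cells put 79 (31.6%) in the accessible, 153 (61.2%) in the moderate and 18 (7.20%) in the closed class. Of the other Late regions 82.8% were closed. The share of accessible or moderate regions was 92.8% against 17.2%, a difference of 75.6 points (68.1 to 79.5). It was also higher than the 65.3% of Early regions with PTF from d0, by 27.5 points (19.7 to 32.2). The 86.6% of Transient regions with PTF from d0 differed by 6.25 points (-1.23 to 10.4), which was not called. In public DNase data of ES cells the median signal was 5.01 against 0.471 in the other Late regions. The ATAC-seq signal per kb had a median of 0.390 at d0, 0.661 at 48 h and 0.532 at 96 h, against 0.0899, 0.219 and 0.293 in the other Late regions. From d0 to 96 h it went up in 197 of the 250 regions (78.8%) with a median log2 change of 0.62. In the other Late regions 95.8% went up, with a median of 1.50, and of all regions 70.7%, with a median of 0.72. Input was also higher in these regions at d0, 1.17 per kb against 0.832, and its part in the other signals was not tested.

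Histone states at d0 were grouped by the authors from public ES cell marks. The 250 regions comprised 79 active enhancers (31.6%), 60 promoters (24.0%), 59 primed enhancers (23.6%), 28 poised enhancers (11.2%), 15 in constitutive heterochromatin, 8 naive regions and 1 in facultative heterochromatin. Active enhancers made up 2.87% of the other Late regions, a difference of 28.7 points (20.0 to 39.0). Facultative heterochromatin made up 34.9% of the other Late regions and 0.400% of the 250, a difference of -34.5 points (-35.9 to -29.8). Weighted for accessibility, these differences were 17.9 points (8.82 to 28.4) and -5.06 points (-6.04 to -0.486). Naive regions differed by -19.1 points (-21.5 to -13.0) and primed enhancers by 12.9 points (5.19 to 22.7). Poised enhancers, at 11.2% and 11.8%, and constitutive heterochromatin, at 6.00% and 12.6%, were not called. Against the Early and the Transient regions with PTF from d0, the active enhancer share differed by 3.96 points (-5.16 to 14.5) and -1.61 points (-10.6 to 8.87), neither of them called.

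**Figure D2:**
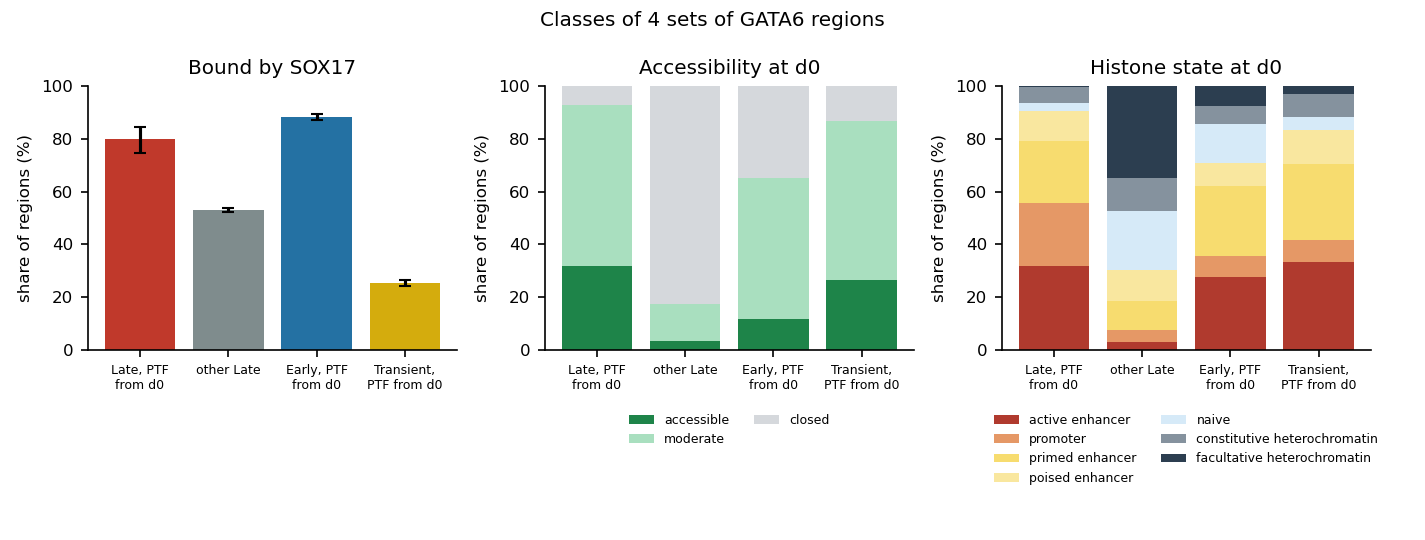
Share of regions in percent bound by SOX17 (bars with 95% Wilson intervals), and by class of accessibility and of histone state at d0 (stacked bars), in the 250 Late regions with PTF from d0 and 3 other sets. The 250 regions had a SOX17 share of 80.0%, 7.20% closed regions and 24.0% in the promoter state, against 52.9%, 82.8% and 4.75% in the other Late regions.

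Of the states, the active enhancer and the promoter state were compared with all 3 other sets, and the promoter share differed from each. The promoter state held 24.0% of the 250 regions, 4.75% of the other Late, 7.98% of the Early and 8.44% of the Transient regions with PTF from d0. The differences were 19.3 points (11.5 to 29.1), 16.0 points (8.14 to 26.0) and 15.6 points (7.76 to 25.5). By annotation, 67 regions had their summit no further than 1 kb from a transcript start (26.8%, against 11.7%, 10.9% and 10.6%), and the differences of 15.1 points (6.98 to 25.2), 15.9 points (7.56 to 26.1) and 16.2 points (7.93 to 26.3) were all called. The other summits lay in introns (92 regions), between genes (84) or in exons (7). Against the other Late regions the promoter difference turned with accessibility. Among accessible regions, 44.3% of these regions and 79.1% of the other Late regions lay within 1 kb of a start, and the difference weighted for accessibility was -13.1 points (-21.7 to -2.72). For the promoter state it was -9.86 points (-18.0 to 0.314).

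In all 60 regions of the promoter state the GATA6 signal was higher at 96 h than at 8 h, with a median log2 change of 1.37, and in all 60 the SOX17 signal was higher at 96 h than at d0, with a median of 1.88. Among the other Late regions of all states, 95.2% and 97.3% had such changes above 0, with larger medians of 1.90 and 2.14. A late rise of GATA6 is also what the Late class was chosen by. SOX17 was called in 52 of the 60. At 96 h OCT4 was above its d0 value in 45, SOX2 in 31 (median log2 change 0.03) and ESRRB in 7 (median -0.80). A GATA6 motif was listed in 35 of the 60 (58.3%).

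Of 42 genes of a pluripotency and signalling list, 2 had a region within 100 kb of their start, Sall4 and Mycn, and of 51 PrE genes 1 did, the keratin gene Krt8. These are 0.800% and 0.400% of the 250 regions, against 1.11% and 1.51% of all regions and 0.529% and 1.89% of the other Late regions, given without a test. Sall4 encodes a zinc finger factor of pluripotent cells, and its region, 14 bp from the start, was accessible, in the promoter state and bound by SOX17 without a GATA6 motif. There GATA6 went from 1.61 at 8 h to 4.70 at 96 h, SOX17 from 1.08 at d0 to 5.30, OCT4 from 3.32 to 4.84 and SOX2 from 3.02 to 5.26. Mycn encodes a MYC family growth regulator, and its region, 119 bp from the start, was accessible and not bound by SOX17. GATA6 there was 1.01 at 8 h and 1.53 at 96 h, and SOX17 0.865 at d0 and 1.64. The Krt8 region, 20145 bp away, carried SOX17 at 1.50 at d0, 8.35 at 48 h and 10.9 at 96 h. All 3 regions thus ended with more GATA6 than they had at 8 h.

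Of the regions within 1 kb of a start, 3 further examples were picked after their values were seen. Polr2a, which encodes the large subunit of RNA polymerase II, had a region 90 bp from its start in which SOX17 went from 2.12 at d0 to 9.48 at 96 h. Trib1, a pseudokinase gene, had one at 80 bp that went from 2.12 to 9.47, and the RNA-binding protein gene Zfp36l1 one at 173 bp that went from 1.36 to 5.50.

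A group of these regions lay on tRNA genes, a feature also chosen after the positions were seen and therefore given without a test. Of the 250 regions 10 (4.00%) overlapped a tRNA gene of the RefSeq annotation, against 9 of 13993 other Late regions (0.0643%), 11 of 3282 Early regions with PTF from d0 and 42 of all 42403 regions. All 10 were in the promoter state, 8 were bound by SOX17 and 3 had no GATA6 motif. Chromosome 13 held 6 of them, in the segment between 21 and 24 Mb that held 10 of the 250 regions and is known for its histone and tRNA genes. The widest of the 250 regions, 1814 bp at chr11:69123918-69125731 near Aloxe3, spanned 3 tRNA genes. GATA6 there was 3.49 at 8 h, 4.17 at 16 h, 4.43 at 24 h, 6.35 at 48 h and 11.5 at 96 h, and SOX17 rose from 3.28 to 14.9. The narrowest, 195 bp at chr13:23526419-23526613 and 4514 bp from Hist1h4h, overlapped an arginine tRNA gene, with GATA6 at 0.725 at 8 h and 1.18 at 96 h and no SOX17 peak. The input there was 0.385 at d0 and 0.537 at 96 h. Without regions on tRNA genes the promoter state was still 16.1 points more frequent than in the other Late regions (8.83 to 25.9).

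GATA6 motifs were scarcer here than in any set compared. The authors' scan listed at least 1 GATA6 motif in 167 of 250 regions (66.8%, 95% interval 60.7 to 72.3%), against 86.3% of the other Late regions, a difference of -19.5 points (-29.8 to -10.5). The share was 95.2% in Early and 83.3% in Transient regions with PTF from d0, with differences of -28.4 points (-38.8 to -19.4) and -16.5 points (-26.9 to -7.38). Where a motif was present its best score had a mean of 8.82 ± 1.65 (SD over 167 regions), against 9.87 ± 2.26 in the other Late regions, a difference of -1.05 (-1.47 to -0.625). The best-scoring GATA6 match was centred no more than 50 bp from the summit in 21.2% of the 250 regions and in 43.6% of the other Late regions. Counting only motifs within 100 bp of the summit, the difference in share was -31.4 points (-40.2 to -21.1). Against the other Late regions the difference in GATA6 motifs was smaller among regions of like accessibility. In the accessible class a GATA6 motif was listed in 54.4% of these regions and 54.5% of the other Late regions, in the moderate class in 70.6% and 77.3%, and in the closed class in 88.9% and 89.1%. The weighted differences were -4.12 points (-14.9 to 5.32) for the share and -0.26 (-0.70 to 0.19) for the score, and neither was called. Weighted for width, the differences in share from Early and Transient regions were -11.7 points (-25.6 to 1.15) and -8.11 points (-18.7 to 1.13), and were not called either. The score differences from these sets stayed called with widths weighted, at -0.84 (-1.31 to -0.37) and -0.57 (-1.01 to -0.13), and the share difference from the other Late regions was then -22.3 points (-32.7 to -13.4).

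**Figure D3:**
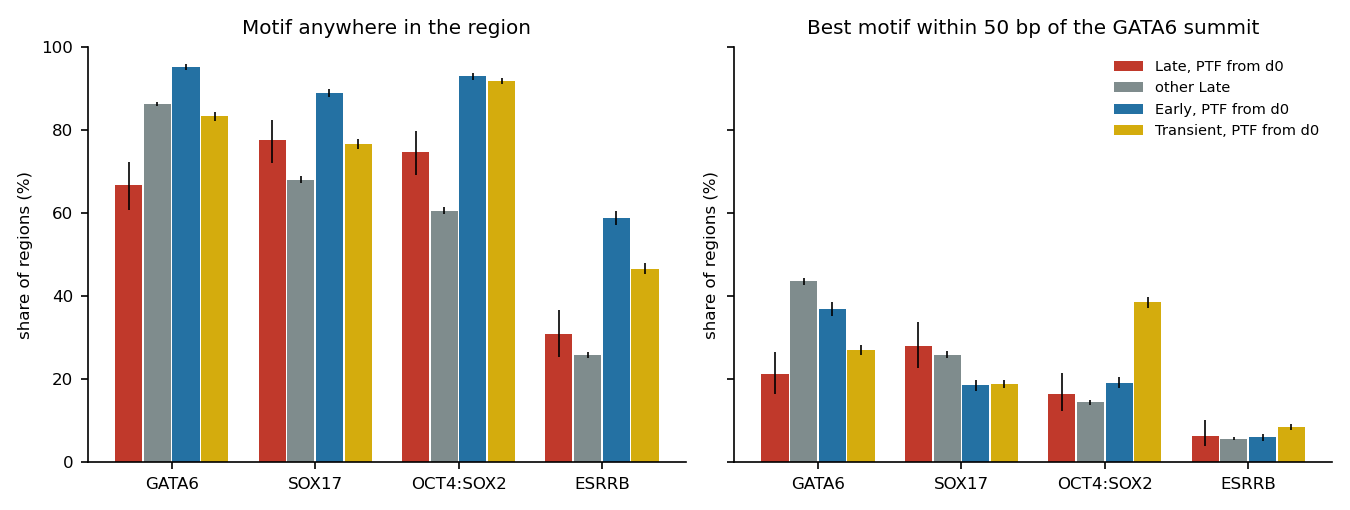
Share of regions in percent with a motif of each factor anywhere in the region (left) and with the best motif centred within 50 bp of the GATA6 summit (right), in 4 sets; error bars are 95% Wilson intervals. In the 250 Late regions with PTF from d0 (red) a GATA6 motif was listed in 66.8% and lay near the summit in 21.2%, while a SOX17 motif was listed in 77.6% and lay near the summit in 28.0%.

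SOX17 motifs were listed in 194 regions (77.6%), more often than GATA6 motifs. The share differed from the 68.1% of other Late regions by 9.52 points (-0.286 to 17.1), not called. Weighted for accessibility it differed by 20.8 points (10.6 to 29.0): in accessible regions the shares were 70.9% and 45.3%, in moderate regions 79.1% and 61.1%, and in closed regions 94.4% and 70.2%. The mean best SOX17 score was 10.3 ± 1.65 (SD, 194 regions) against 9.90 ± 1.62, a difference of 0.40 (0.01 to 0.80) that was called, and of 0.32 (-0.08 to 0.71), not called, with widths weighted. With only motifs within 100 bp of the summit counted, the share differed by -1.94 points (-11.6 to 8.56), not called. Among the 9-letter best motifs, 173 of 194 (89.2%) had ATTGT at positions 4 to 8, counted from the 5′ end of the motif, against 83.8% in the other Late, 87.9% in the Early and 82.4% in the Transient regions with PTF from d0. The most frequent are shown because the windows of the Foxo1, Kit and Rbm39 regions each hold one of them:
Best SOX17 motif in 7 regions, score 12.8: CCCATTGTC
Best SOX17 motif in 7 regions, score 12.8: CTCATTGTC
Best SOX17 motif in 6 regions, score 12.3: TCCATTGTC
Best SOX17 motif in 6 regions, score 11.5: GCCATTGTG

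The sequence CCCATTGTC is the SOX17 motif of the Foxo1 region and CTCATTGTC that of the Kit and Rbm39 regions, seen in the windows as their reverse complements. A SOX17 motif without any GATA6 motif was found in 65 regions (26.0%), against 8.69% of the other Late, 3.75% of the Early and 12.3% of the Transient regions with PTF from d0. This pairing was examined after the single motifs and has no test. SOX17 peaks were called in 70 of the 83 regions without a GATA6 motif and in 130 of the 167 with one. In those 83 regions the log2 change of GATA6 signal from 8 to 96 h had a median of 1.02, and in the 167 a median of 1.05.

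**Figure D4:**
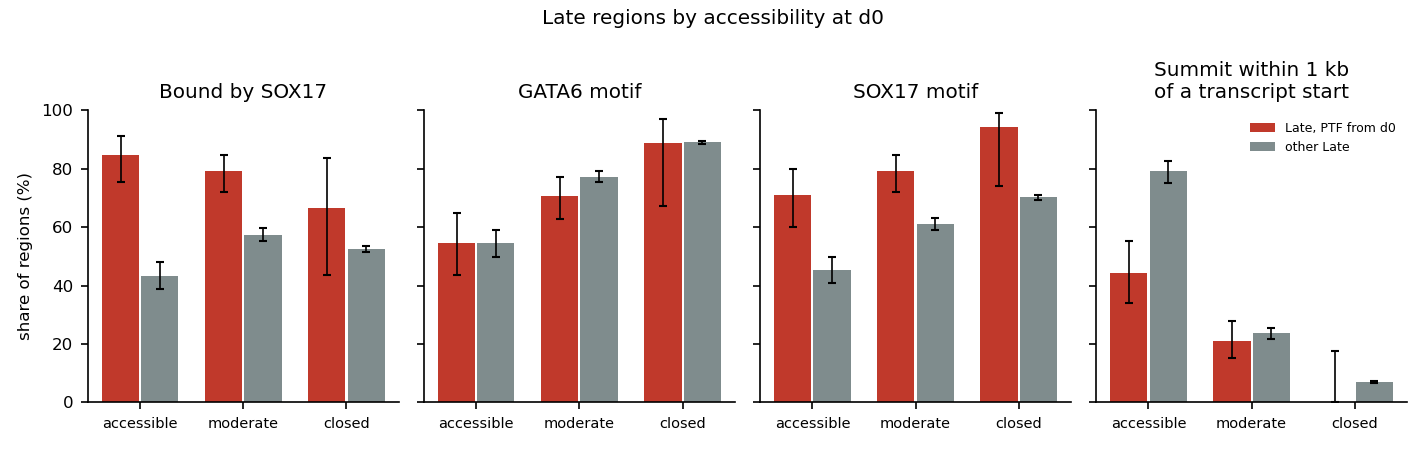
Share of Late regions in percent that were bound by SOX17, had a GATA6 or a SOX17 motif, or had their summit within 1 kb of a transcript start, by class of accessibility at d0; red bars are the 250 regions with PTF from d0, grey bars the other Late regions, error bars 95% Wilson intervals. SOX17 was bound in 84.8% against 43.4% of accessible regions, whereas the GATA6 motif shares in that class were 54.4% and 54.5%.

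OCT4:SOX2 motifs were listed in 187 regions (74.8%). This was 14.2 points (4.16 to 22.2) more than the 60.6% of other Late regions, and 7.52 points (-2.50 to 15.5), not called, with widths weighted. Weighted for accessibility the difference was 27.1 points (16.6 to 35.6), and for motifs within 100 bp of the summit it was 1.04 points (-7.39 to 11.2), not called. The mean best score was 9.02 ± 2.93 (SD, 187 regions) against 7.82 ± 2.08, a difference of 1.20 (0.50 to 1.91). Both were lower than in the other regions with PTF from d0: 92.9% of the Early and 91.8% of the Transient regions had the motif, differences of -18.1 points (-28.1 to -10.1) and -17.0 points (-27.0 to -9.00). The mean best scores there were 9.89 and 10.8, differences of -0.86 (-1.59 to -0.14) and -1.74 (-2.46 to -1.02). Weighted for width, the share and the score no longer differed detectably from those of the Early regions, at -8.53 points (-21.1 to 2.48) and -0.81 (-1.72 to 0.10). ESRRB motifs were listed in 77 regions (30.8%) against 25.8%, a difference of 5.03 points (-3.70 to 15.3), not called. The highest OCT4:SOX2 score, 18.5, belonged to the Erbb4 region and the highest ESRRB score, also 18.5, to a region in an intron of the axon guidance receptor gene Robo1. All 4 kinds of motif occurred in 34 of the 250 regions and none in 6.

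The authors compared GATA6 binding after 48 h of Dox between cells with Oct4 and control siRNA and gave each region a class. It was raised in 46 of the 250 regions (18.4%, 95% interval 14.1 to 23.7%), lowered in 1 (0.400%) and unchanged in 203. Over all regions 8.57% were raised and 6.25% lowered. In the other Late regions 19.2% were raised and 1.09% lowered. Among Early regions with PTF from d0, 4.84% were raised and 19.1% lowered, and among Transient ones 0.283% and 10.3%. SOX17 was bound in 44 of the 46 raised regions, against 80.0% of all 250. Of the 46, 34 were of moderate accessibility, against 153 of the 250. A GATA6 motif was listed in 40 of the 46, against 66.8% of the 250. The raised regions among the other Late regions are not split in this way here, so these shares are not read as particular to the 250. The raised share by accessibility was 7.59% of accessible, 22.2% of moderate and 33.3% of the 18 closed regions.

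Both signals were higher with Oct4 siRNA in most of the 250 regions, as they were in most of the other Late regions. The median GATA6 signal was 1.43 with control and 2.11 with Oct4 siRNA, and the median SOX17 signal 1.44 and 2.93. GATA6 was higher with the knockdown in 189 of 250 regions (75.6%), with a median log2 ratio of 0.44, and SOX17 in 238 (95.2%), with a median of 1.02. Over all 42403 regions the median ratios were -0.00 and 0.64, with 49.8% and 82.0% of regions above 0. In the other Late regions the median ratios were 0.58 and 1.05, with 78.8% and 92.8% above 0. At the Foxo1 region GATA6 went from 4.25 to 7.53 and SOX17 from 8.11 to 17.3. An intronic region of Nr6a1, a nuclear receptor gene, went from 1.98 to 8.04 for GATA6 and from 2.09 to 11.1 for SOX17. At the Kit region the values were 1.08 and 2.74 for GATA6 and 0.871 and 2.83 for SOX17. The single lowered region, 9792 bp from the start of the phospholipid enzyme gene Lpcat1, was closed, in constitutive heterochromatin and without a GATA6 motif. GATA6 fell there from 1.91 to 0.670, and SOX17 was 0.602 and 0.581. With each chromosome left out in turn the raised share stayed between 17.6 and 19.1%.

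**Figure D5:**
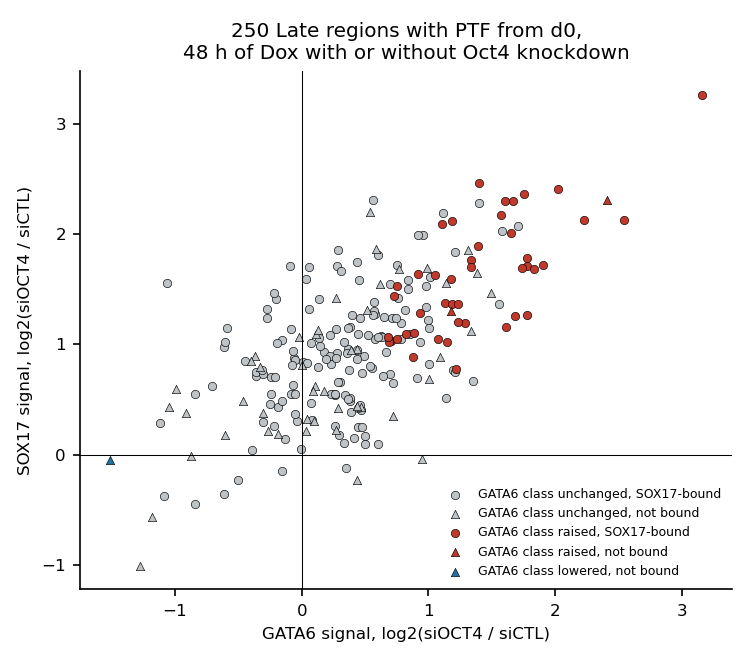
Log2 ratio of the signal with Oct4 siRNA to that with control siRNA after 48 h of Dox, for GATA6 (horizontal axis) and SOX17 (vertical axis), 1 point per region for the 250 Late regions with PTF from d0; colour gives the authors' class of the GATA6 change and shape the SOX17 class. The 46 raised regions (red) lie to the right, with SOX17 ratios from 0.78 to 3.26, and 44 of them are SOX17-bound, against 200 of all 250.

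The regions were spread over the genome, though often beside other GATA6 sites. They fell on 20 chromosomes and in 242 stretches of regions no more than 10 kb apart, 7 of which held 2 or more. Chromosomes 1 and 11 had most, with 26 each. Another GATA6 region lay within 10 kb of 162 of the 250 (64.8%), against 54.5% of the other Late regions, a difference of 10.3 points (-0.183 to 19.5), not called. The nearest other GATA6 region was of the Late class for 110, Early for 71 and Transient for 69, and had PTF from d0 for 76 (30.4%), against 14.7% of the other Late regions. The mean width of the 250 regions was 600 ± 305 bp (SD), 124 bp (60.0 to 188) more than that of the other Late regions, and 590 bp less than that of the Early regions with PTF from d0. GC content was 45.9 ± 5.47% against 44.7 ± 5.34%, a difference of 1.20 points (0.0491 to 2.35). The ratio of observed to expected CpG was 0.309 ± 0.223 against 0.223 ± 0.165, given without a test.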

How the data were processed

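The deposited table lists 42403 GATA6 regions in GRCm38 (mm10) coordinates. The authors aligned reads with Bowtie2, called peaks with MACS2, and kept those found in each replicate. ChIP-seq, input and ATAC-seq values are deposited signal values, library-size-corrected reads per region with 1 value per factor and time point. Whether replicates were pooled or averaged, and the scale, are not given in the sources used here, so no error between cultures can be given. The authors divided the signal of public ES cell marks by region width as well. Motif score values are the authors' best FIMO hits per region, and the knockdown classes raised and lowered are the authors' own. Of the signal columns, 48 were used and 4 columns of single libraries were not. The MNase libraries entered no comparison.

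Regions were chosen by the authors' classes, and genes and tRNA genes were taken from the reference annotation. The members and gene lists were chosen with earlier results of these data known. Named regions were those with the best score of each motif, the widest and narrowest, up to 3 of each class of accessibility, SOX17 binding and knockdown response by OCT4:SOX2 score, and those within 100 kb of a listed gene. The Polr2a, Trib1 and Zfp36l1 regions fall outside this rule and were picked after their values were seen. Differences in shares were given Newcombe intervals and differences in means large-sample intervals, at 99.9% for 50 comparisons. Single shares have 95% Wilson intervals. Regions of 1 culture are not independent replicates, and intervals cover the spread between regions only. Calculations used Python 3.11.15 with numpy 2.4.6, pandas 2.3.3, scipy 1.17.1 and pysam 0.24.0, and were tested on simulated data. Alternatives weighted the compared regions by width or accessibility, kept 1 region per 10-kb stretch, left out chromosomes in turn, used only Late regions without PTF, or counted motifs within 100 bp of the summit.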

Additional observations from a re-analysis of the deposited data

How the results depend on the processing

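Of 89 values under alternative settings for 28 results, 72 kept their direction and their side of the threshold, and 13 results did so under every alternative run. With the other Late regions weighted to the same accessibility, the difference in promoter state became -9.86 points, that in summits within 1 kb of a start -13.1 points, that in GATA6 motif share -4.12 points and that in GATA6 score -0.26, while that in SOX17 motif share rose to 20.8 points. With motifs within 100 bp of the summit only, the differences were -1.94 points for SOX17, 1.04 points for OCT4:SOX2 and -0.941 points for ESRRB motifs, and 0.20 for the ESRRB score. With widths weighted, the SOX17 score differed by 0.32 and the OCT4:SOX2 share by 7.52 points from other Late regions. Against Early regions the SOX17 share then differed by 2.64 points, the GATA6 motif share by -11.7 points, the OCT4:SOX2 share by -8.53 points and the OCT4:SOX2 score by -0.81, and against Transient regions the GATA6 motif share by -8.11 points. Without chromosome 13 the share lowered by the knockdown was 0%, since its single region lies there. The causes of the other shifts were not tested. The SOX17 difference from other Late regions was called under each alternative run, at 12.1 to 31.1 points. No paired analysis was possible because no library enters any result, and for the same reason no replicate could be left out.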
